A study of Mus musculus with 8 samples.

Results

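Retinoic acid, a derivative of vitamin A, is made from retinal by ALDH1A enzymes, carried in the cell by CRABP proteins, degraded by CYP26 enzymes, and read out by the nuclear receptors RARA, RARB and RARG, which bind DNA together with RXR partners. In the fetal ovary it is associated with the onset of Stra8 and entry into meiosis, whereas in the fetal testis CYP26B1 made by somatic cells removes it and male germ cells stay in arrest. The 9 genes described here are the target Stra8, the receptor genes Rara, Rarb and Rarg, the breakdown enzyme gene Cyp26b1, the synthesis enzyme genes Aldh1a1 and Aldh1a2, and the binding protein genes Crabp1 and Crabp2. They were chosen by symbol, through the Ensembl identifier in GENCODE M21, and all 9 were found among the 55401 genes of the deposited table.

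Their RNA was counted in 8 libraries of mouse prospermatogonia at E17.5, 4 from Tet1-/- animals (labelled KO) and 4 from Tet1+/+ animals (labelled WT), in 1 batch. Libraries were made from 5 ng of total RNA depleted of ribosomal RNA. TET1 oxidises methylated cytosine and has further roles that do not need catalysis, which the title of the series names as its question. The sources used here do not give the kind of Tet1 allele, the strain or the way the cells were isolated. They do not say whether each library came from a separate animal either. The p-values therefore set the group difference against the variation between these libraries, which may not be that between animals.

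Libraries labelled KO held 13820764 to 19947912 counts in total, and libraries labelled WT held 14732396 to 20115250. Tet1 itself had 75.8 to 147 CPM (the usual depth-scaled counts, with TMM scaling between libraries) in the libraries labelled KO, against 30.2 to 34.2 CPM in those labelled WT. That goes against the labels, although a gene count does not show which exons were read, and every direction below refers to the labels as deposited. Markers of Leydig cells, the steroid-producing cells between the testis tubules, summed to 1760 CPM in KO 4 and to 13.7 to 19.9 CPM in the other libraries labelled KO, against 14.6 to 31.3 CPM in those labelled WT. The values of the 9 genes that rest on KO 4 are therefore given with and without it. Germ cell markers (6 of 6 detected, Ddx4 and Dazl among them) summed to 1470 to 1800 CPM in the libraries labelled KO and 1500 to 1750 CPM in those labelled WT. Their mean log2 level was higher by 0.25 in the libraries labelled KO (two-sided exact permutation p = 0.0286, adjusted p = 0.0514 over 9 marker lists). The difference was 0.15 to 0.29 when 1 library was left out. Without TMM scaling it was 0.08 (same test, adjusted p = 0.661). Single germ cell markers moved apart, with Dazl at 411 to 466 CPM in the libraries labelled KO and 212 to 323 CPM in those labelled WT, and Mael at 166 to 219 CPM and 381 to 446 CPM. Nanos3 had 4.80 to 12 CPM in the libraries labelled KO and 0.697 to 2.71 CPM in those labelled WT.

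Of the 9 genes, all passed the low-count filter, and 4 were higher, 3 lower and 2 did not pass in the libraries labelled KO with edgeR at an adjusted p under 0.05. Stra8 and Rara were called higher and Aldh1a2 lower under every setting tried. Rarb was lower under every setting and kept its call under all but 1 of them. The calls of Aldh1a1, Crabp1 and Crabp2 depended on single libraries or settings. Among all 24005 genes tested, 53.5% passed, 25.3% higher and 28.2% lower, so that a call by itself was common in these data. Groups did not overlap for 6 of the 9 genes, against 48.4% of all genes tested. The median log2 difference was 0.12 over the 9 genes and -0.05 over all genes. Without KO 4, 3 of the 9 were higher and 2 lower.

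**Figure D1:**
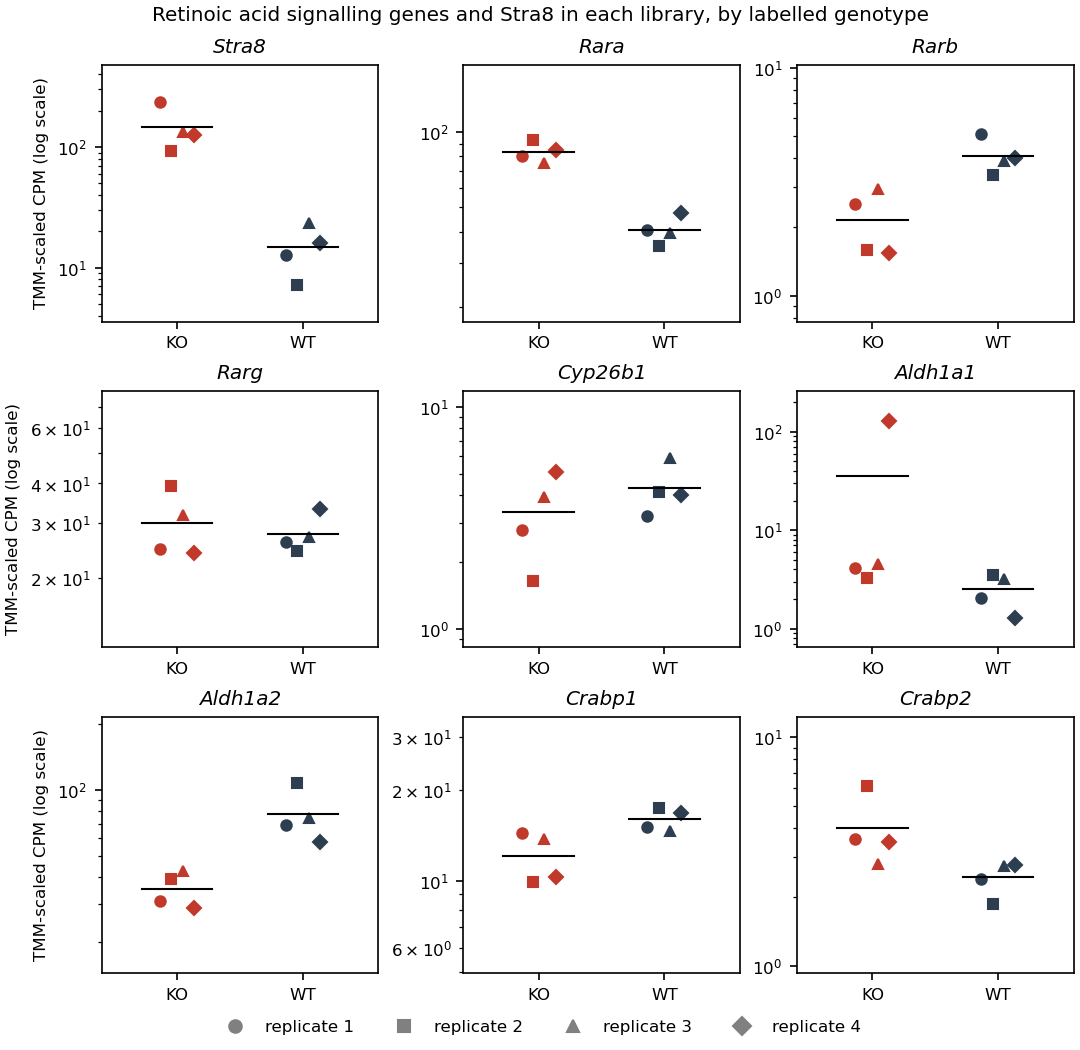
TMM-scaled CPM (log axis, a separate range per panel) of each gene in the 4 libraries labelled KO (red, left) and the 4 labelled WT (dark, right). Marker shapes give the replicate number and bars the group mean. Stra8 and Rara lie higher in every library labelled KO, Aldh1a2 and Rarb lie lower, and Aldh1a1 is high in KO 4, at 129 CPM.

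Stra8 (ENSMUSG00000029848.11, chromosome 6, 34920163 to 34939344, plus strand, GRCm38) encodes a protein needed for entry into meiosis. It had 238, 92.2, 132 and 125 CPM in KO 1 to KO 4, against 12.6, 7.14, 23.6 and 16 CPM in WT 1 to WT 4. The lowest library labelled KO was above the highest labelled WT. Within each group the libraries varied, with the highest 2.58 times the lowest among those labelled KO and 3.30 times among those labelled WT. The means were 147 ± 63.1 CPM in the libraries labelled KO and 14.8 ± 6.87 CPM in those labelled WT (SD, n = 4 each), from 8939 and 1100 counts. The log2 difference was 3.30 (SE 0.340, edgeR adjusted p = 7.72e-06), the 41st largest rise of the genes tested.

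The promoters of Stra8 and Rarb are shown because both genes are known targets of retinoic acid and the 2 moved in opposite directions here. Each window holds 250 bases before and 50 after a start listed in RefSeq (GRCm38.p6), printed 5′ to 3′ on the strand of the gene. Both windows lie inside the gene spans given here, that of Rarb far from the 5′ end of its span. Capitals mark the hexamer AGGTCA, the hexamer AGTTCA, the hexamer GGGTCA and the hexamer GGTTCA, forms of the sequence bound by RAR and RXR, searched on both strands. The Stra8 window is chr6:34920698-34920997 on the plus strand, and the Rarb window is chr14:16575427-16575726 on the minus strand.
Stra8: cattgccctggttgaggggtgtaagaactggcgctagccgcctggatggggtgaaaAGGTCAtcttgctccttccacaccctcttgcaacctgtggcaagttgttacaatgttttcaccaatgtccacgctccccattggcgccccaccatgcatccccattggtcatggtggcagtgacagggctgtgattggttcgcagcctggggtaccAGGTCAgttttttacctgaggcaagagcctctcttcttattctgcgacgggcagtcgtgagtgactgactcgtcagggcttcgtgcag
Rarb: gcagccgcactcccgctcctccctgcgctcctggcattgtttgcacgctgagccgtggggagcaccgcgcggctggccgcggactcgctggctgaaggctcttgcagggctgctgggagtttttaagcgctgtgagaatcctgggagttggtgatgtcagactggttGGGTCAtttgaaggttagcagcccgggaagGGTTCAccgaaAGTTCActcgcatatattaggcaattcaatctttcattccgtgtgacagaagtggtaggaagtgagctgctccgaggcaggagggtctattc

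The Stra8 window held 2 hexamers, both AGGTCA, that begin 194 and 38 bases before the start. The Rarb window held 3, and 2 of them stand in the same orientation with 5 bases between them, which is the arrangement of the classical retinoic acid response element. Of 32851 promoter windows, 43.7% held at least 1 hexamer, while 32 (0.097%) held such a repeat with a spacing of 5. Windows were matched for 8 of the 9 genes, 13 windows in all, with Crabp2 unmatched. At least 1 hexamer was found in 6 of these 13 windows, belonging to 5 genes, a share near that of all windows, and a repeat with a spacing of 1, 2 or 5 only for Rarb (0.588% of all windows).

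CpG content, the substrate of TET enzymes when methylated, differed widely between the windows. The Aldh1a2 window held 50 CpG, more than 99.1% of all windows, whose median was 7. Those of Aldh1a1 held 3 and 1, that of Stra8 held 10, and that of Rarb held 17. These counts describe sequence only, and no methylation was measured in these libraries.

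Among the receptor genes, Rara rose, Rarb fell and Rarg did not pass. Rara (ENSMUSG00000037992.16, chromosome 11, 98927818 to 98974942, plus strand) encodes the receptor that is best known from the male germ line and Sertoli cells. It had 80.0, 92.6, 75.3 and 84.9 CPM in KO 1 to KO 4, against 40.4, 34.9, 39.5 and 47.6 CPM in WT 1 to WT 4. The groups lay apart and each was narrow, at 83.2 ± 7.39 CPM in the libraries labelled KO and 40.6 ± 5.25 CPM in those labelled WT (SD, n = 4 each). The log2 difference was 1.04 (SE 0.118, edgeR adjusted p = 1.62e-05).

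Rarb (ENSMUSG00000017491.9, chromosome 14, 16430839 to 16819156, minus strand), itself induced by retinoic acid in many cell types, was scarce in both groups. Its values were 2.52, 1.59, 2.95 and 1.54 CPM in KO 1 to KO 4, against 5.12, 3.37, 3.89 and 4.01 CPM in WT 1 to WT 4. Every library labelled KO was below every library labelled WT, on 130 counts against 300. The log2 difference was -0.94 (SE 0.275, edgeR adjusted p = 0.0114), and with cyclic loess scaling it lost its call (-0.63, edgeR adjusted p = 0.0630). Of its exon length, 34.1% overlaps Top2b, a topoisomerase gene on the opposite strand, and the strand setting of the counting is not given. Top2b had 128 ± 23.9 CPM in the libraries labelled KO and 36.9 ± 2.41 CPM in those labelled WT (SD, n = 4 each). The part of that overlap in the Rarb counts was not tested.

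Rarg (ENSMUSG00000001288.15, chromosome 15, 102234938 to 102257517, minus strand), the receptor known for spermatogonial differentiation after birth, had 24.8, 39.4, 31.7 and 24 CPM in KO 1 to KO 4, against 26.1, 24.3, 27.1 and 33.1 CPM in WT 1 to WT 4. The ranges overlapped almost fully. Its log2 difference was 0.12 (SE 0.166, edgeR adjusted p = 0.573), with an interval of 2 SE on either side from -0.21 to 0.45. The sign depended on the scaling, at -0.12 with upper-quartile, -0.08 with ribosomal protein and -0.11 with cyclic loess scaling.

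The make-up of the receptor transcripts differed between the groups on a scale that does not depend on library scaling. Per kilobase of exon, Rara made up 72.1% ± 4.12 of the summed level of the receptors in the libraries labelled KO and 56.1% ± 0.37 in those labelled WT (SD, n = 4 each). Rarg made up 26.3% ± 4.02 in the libraries labelled KO and 39.2% ± 1.17 in those labelled WT, and Rarb 1.6% ± 0.60 and 4.7% ± 0.86 (SD, n = 4 each). Unlike these shares, the summed level depends on library scaling. With TMM it was 26.5 ± 2.85 CPM per kilobase in the libraries labelled KO and 16.6 ± 2.12 in those labelled WT (SD, n = 4 each).

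Count ratios gave the tests of these shifts. The log2 ratio of Rarg to Rara was -1.69, -1.23, -1.25 and -1.82 in KO 1 to KO 4, against -0.63, -0.52, -0.54 and -0.52 in WT 1 to WT 4. It differed by -0.95 between the groups, that of Rarb to Rara by -2.0, and that of Rarb to Rarg by -1.05. For each of these ratios the groups did not overlap (two-sided exact permutation test, p = 0.0286, adjusted p = 0.0333 over 7 ratios). That p is the lowest value possible with 70 splits. Since Rara was higher and Rarb lower in every library labelled KO, the ratio of Rarb to Rara had to separate the groups.

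**Figure D2:**
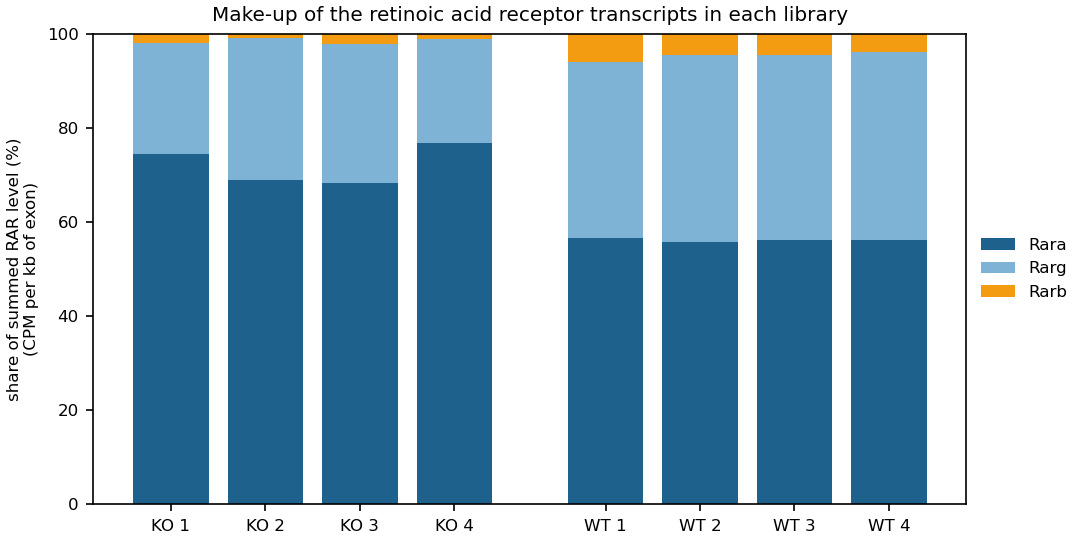
Share (%) of Rara, Rarg and Rarb in the summed level of the RAR genes, in CPM per kilobase of exon, for each library, those labelled KO on the left and those labelled WT on the right. Rara takes 68.3 to 76.7% in the libraries labelled KO and 55.7 to 56.6% in those labelled WT.

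Of the synthesis enzymes, Aldh1a2 fell. Aldh1a2 (ENSMUSG00000013584.5, chromosome 9, 71215789 to 71296243, plus strand) encodes the main retinoic acid synthase of the embryo, known around the gonad from the mesonephros. It had 30.8, 39, 42.3 and 28.8 CPM in KO 1 to KO 4, against 69.3, 108, 74.6 and 57.6 CPM in WT 1 to WT 4. All libraries labelled KO lay below those labelled WT, and the means were 35.2 ± 6.46 CPM and 77.3 ± 21.4 CPM (SD, n = 4 each). The log2 difference was -1.13 (SE 0.183, edgeR adjusted p = 0.000220).

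Beside Aldh1a2, the levels of markers of other cell types were compared, and none of the 9 lists passed the threshold after adjustment. With 70 splits the exact test can give no p under 0.0286, and lists at that lowest value had an adjusted p of 0.0514. That none passed therefore does not show that levels were alike. In bulk samples, fewer cells of a type and less RNA per cell cannot be told apart. The 4 peritubular myoid markers summed to 17.2 to 29.5 CPM in the libraries labelled KO and to 43.2 to 79.3 CPM in those labelled WT (exact two-sided permutation p = 0.0286 for their mean log2 level, adjusted p = 0.0514 over 9 marker lists). The 5 mesonephric and epithelial markers summed to 77.4 to 101 CPM in the libraries labelled KO and 99.4 to 143 CPM in those labelled WT (same exact test, p = 0.0286, adjusted p = 0.0514). Within this list Epcam, at 34.5 to 61.0 CPM in the libraries labelled KO and 36.8 to 42.4 CPM in those labelled WT, was higher in 3 libraries labelled KO than in any labelled WT. Mean log2 levels differed by -0.56 for the 5 endothelial markers and by -0.35 for the 5 macrophage and leukocyte markers, each with the same p and adjusted p. Pecam1 went against its endothelial list, at 21.3 to 36.3 CPM in the libraries labelled KO and 13.1 to 16.7 CPM in those labelled WT. The other endothelial markers were lower in every library labelled KO. Cd68, of the leukocyte list, leaned higher, at 4.2 to 6.3 CPM in the libraries labelled KO and 2.03 to 4.98 CPM in those labelled WT. Unlike these lists, the 8 interstitial and mesenchymal markers leaned higher in the libraries labelled KO. They summed to 104 to 136 CPM there and 78.5 to 106 CPM in those labelled WT (difference of mean log2 levels 0.38, exact p = 0.114, adjusted p = 0.147). Pdgfra went against this list, at 13.7 to 19.7 CPM in the libraries labelled KO and 20.2 to 25.8 CPM in those labelled WT. Lum leaned lower too, at 0.257 to 1.19 CPM and 0.922 to 2.38 CPM. The others leaned higher, and Col1a1, the most abundant, had 53.2 to 64.5 CPM and 33.1 to 44.0 CPM. The part of these cell types in the level of Aldh1a2 was not tested.

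Aldh1a1 (ENSMUSG00000053279.8, chromosome 19, 20492715 to 20643465, plus strand), a second retinal dehydrogenase gene, known from somatic cells of the testis, was called higher on the strength of 1 library. It had 4.11, 3.29, 4.50 and 129 CPM in KO 1 to KO 4, against 2.05, 3.49, 3.21 and 1.29 CPM in WT 1 to WT 4. KO 4 stood far above all others, and KO 2 lay within the range of the libraries labelled WT. The log2 difference of 3.80 (SE 1.07, edgeR adjusted p = 0.00908) became 0.68 (SE 0.331, edgeR adjusted p = 0.109) without KO 4. With the somatic marker level as a covariate, which was itself highest in KO 4, it was 1.6 (edgeR adjusted p = 0.00267). Aldh1a7, a close copy of the gene to which reads may also be assigned, had 4, 2, 2 and 78 counts in KO 1 to KO 4 and 4 to 19 counts in the libraries labelled WT.

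Leydig cell transcripts were high in the same library. All 6 markers of that list were highest in KO 4, with Cyp17a1 at 862 CPM, Cyp11a1 at 369 CPM, Star at 326 CPM and Hsd3b1 at 168 CPM. In the other libraries labelled KO, Cyp17a1, a steroid-producing enzyme gene, had 1.55 to 4.70 CPM, against 0.292 to 6.16 CPM in those labelled WT. Insl3, a hormone gene of Leydig cells, had 24.9 CPM in KO 4 and was at 0 in KO 1, KO 2 and WT 4. Aldh1a1 in KO 4 was 32.5 times its mean in the other libraries labelled KO, the 5th largest such ratio of the genes tested. Adh1, an alcohol dehydrogenase gene that can oxidise retinol, had 45.7 CPM in KO 4 and 0.567 to 1.52 CPM in the other libraries labelled KO, against 1.16 to 4.59 CPM in those labelled WT. The part of Leydig cell RNA in these values was not tested.

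**Figure D3:**
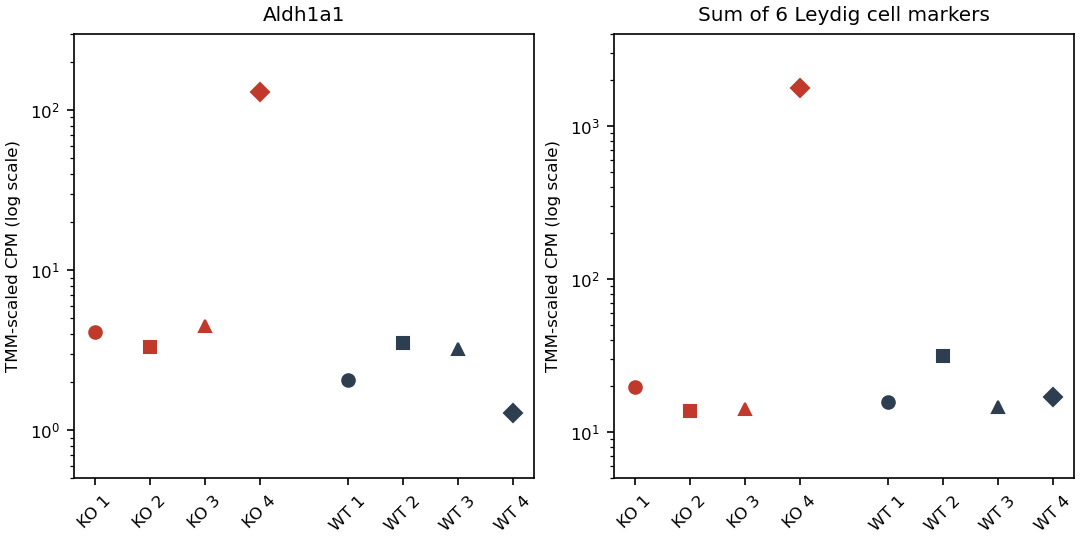
TMM-scaled CPM (log axis) of Aldh1a1 (left) and of the sum of 6 Leydig cell markers (right) in each library, labelled KO in red and WT in dark. KO 4 holds 129 CPM of Aldh1a1 and 1760 CPM of the markers, and the other libraries reach at most 4.50 CPM and 31.3 CPM.

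Cyp26b1 (ENSMUSG00000063415.12, chromosome 6, 84571414 to 84593908, minus strand), the enzyme gene that protects fetal male germ cells from retinoic acid, did not pass. It had 2.78, 1.65, 3.91 and 5.08 CPM in KO 1 to KO 4, against 3.23, 4.12, 5.89 and 4.01 CPM in WT 1 to WT 4, and the ranges overlapped. The log2 difference was -0.37 (SE 0.320, edgeR adjusted p = 0.348), with an interval of 2 SE on either side from -1.01 to 0.27. It was -0.62 (edgeR adjusted p = 0.132) without KO 4. Sertoli cells are its known source in the fetal testis, and 10 of 10 Sertoli markers were detected, at a sum of 28 to 101 CPM in the libraries labelled KO and 18 to 31.3 CPM in those labelled WT (exact two-sided permutation p = 0.114, adjusted p = 0.147). Inha, at 58.3 CPM in KO 4, made up most of the highest sum, and Fshr was at 0 there. Without KO 4 the sums in the libraries labelled KO were 28 to 30.4 CPM. That was below WT 2, at 31.3 CPM, but above the other libraries labelled WT, at 18 to 20.7 CPM. The difference of mean log2 levels was 0.26 without KO 4 and 0.42 with it. Single Sertoli markers moved apart, with Amh at 2.89 to 5.01 CPM in the libraries labelled KO and 1.18 to 2.32 CPM in those labelled WT. Dhh went the other way, at 1.13 to 1.39 CPM and 1.43 to 2.73 CPM.

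Ratios set breakdown against synthesis within each library. The log2 ratio of Cyp26b1 to Aldh1a2 averaged -3.48 ± 0.84 in the libraries labelled KO and -4.15 ± 0.49 in those labelled WT (SD, n = 4 each), and the ranges overlapped (difference 0.67, exact two-sided permutation p = 0.171). That of Cyp26b1 to Aldh1a1 was -0.56, -0.99, -0.20 and -4.66 in KO 1 to KO 4, against 0.65, 0.24, 0.87 and 1.61 in WT 1 to WT 4. It was lower in all 4 libraries labelled KO (exact p = 0.0286, adjusted p = 0.0333), by -2.44 with KO 4 and by -1.42 without it. The ratio of Aldh1a2 to Aldh1a1 was 2.90, 3.56, 3.22 and -2.16 in KO 1 to KO 4, against 5.06, 4.94, 4.53 and 5.44 in WT 1 to WT 4. It was likewise lower in all libraries labelled KO (exact p = 0.0286, adjusted p = 0.0333), by -3.11 with KO 4 and by -1.77 without it.

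The binding protein genes leaned in opposite directions, each with an adjusted p just under the threshold. Crabp1 (ENSMUSG00000032291.8, chromosome 9, 54764748 to 54773110, plus strand), whose product holds retinoic acid in the cytoplasm, had 14.4, 9.87, 13.7 and 10.3 CPM in KO 1 to KO 4, against 15.1, 17.4, 14.6 and 16.8 CPM in WT 1 to WT 4. The groups were adjacent without overlap, and the log2 difference was -0.40 (SE 0.162, edgeR adjusted p = 0.0490). It lost its call when any of 6 libraries was left out, KO 2, KO 4 or any labelled WT (edgeR adjusted p from 0.0747 to 0.186).

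Crabp2 (ENSMUSG00000004885.5, chromosome 3, 87948666 to 87953376, plus strand), whose product delivers retinoic acid to the receptor, had 3.58, 6.13, 2.80 and 3.47 CPM in KO 1 to KO 4, against 2.41, 1.86, 2.73 and 2.78 CPM in WT 1 to WT 4. KO 2 was the high library, and KO 3 was barely above WT 4. The log2 difference was 0.71 (SE 0.281, edgeR adjusted p = 0.0461), and it was 0.46 (edgeR adjusted p = 0.170) without KO 2 and lost its call without KO 1, WT 1, WT 2 or WT 3 as well (edgeR adjusted p from 0.0526 to 0.0977). The log2 ratio of Crabp2 to Crabp1 was -2.0, -0.69, -2.27 and -1.57 in KO 1 to KO 4, against -2.64, -3.20, -2.41 and -2.58 in WT 1 to WT 4. All 4 libraries labelled KO were higher, by 1.08 on average (exact two-sided permutation p = 0.0286, adjusted p = 0.0333). Crabp2 was higher and Crabp1 lower in every library labelled KO than in any labelled WT. Their ratio therefore had to separate the groups, and its p adds no support to either call.

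**Figure D4:**
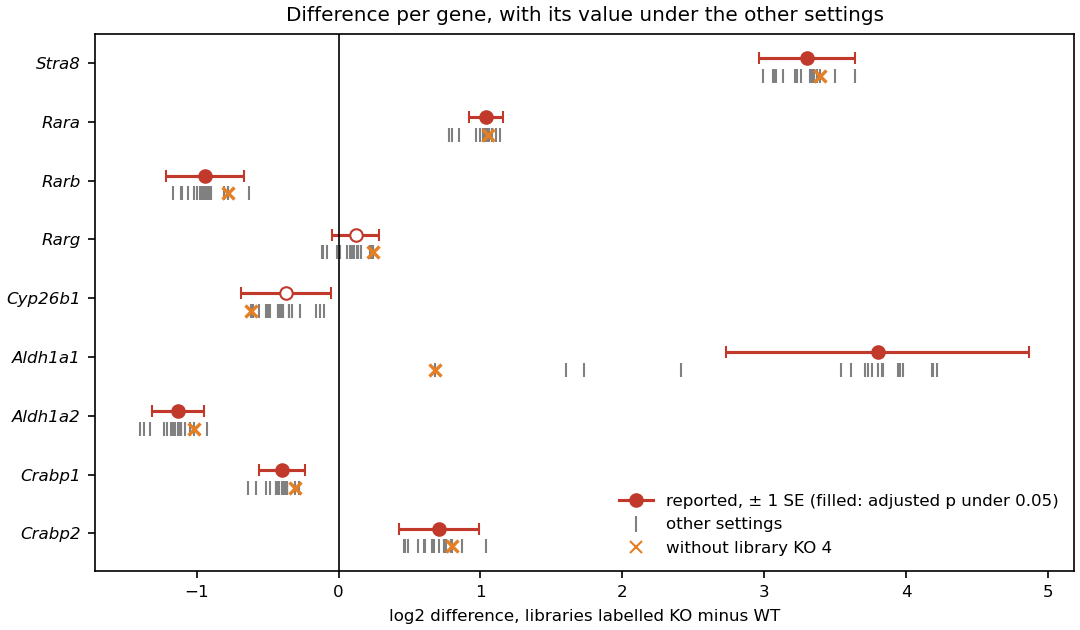
Log2 difference, libraries labelled KO minus WT, of each gene: red points with bars of 1 SE are the reported values, filled where the adjusted p is under 0.05. Grey ticks are the values under the other settings and orange crosses those without KO 4. Aldh1a1 moves from 3.80 to 0.68 without KO 4, and the ticks of Rarg lie on both sides of 0.

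Per kilobase of exon the order of the genes differed between the groups. In the libraries labelled KO, Stra8 stood first at 81.3 ± 35 CPM per kilobase (SD, n = 4), clear of Rara at 19.1 ± 1.69. Rara, Aldh1a2 (15.6 ± 2.86) and Crabp1 (15.0 ± 2.85) overlapped as neighbours in that order. In the libraries labelled WT, Aldh1a2 stood first at 34.1 ± 9.46 CPM per kilobase (SD, n = 4), followed clear of overlap by Crabp1 at 19.9 ± 1.66. Next came Rara at 9.30 ± 1.20, Stra8 at 8.22 ± 3.81 and Rarg at 6.49 ± 0.896, neighbours whose ranges overlapped. Crabp2 was lower, at 3.02 ± 1.11 in the libraries labelled KO and 1.85 ± 0.320 in those labelled WT. Cyp26b1 and Rarb reached at most 1.10 and 0.973 CPM per kilobase in any library and overlapped with each other.

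The genes whose centred log2(CPM + 1) values over the 8 libraries came nearest to those of Stra8 were Hist1h3a, Hist1h3b, Hist1h3c, Ptma and Hist1h2bn. Their root mean square distance from Stra8 was 0.371 to 0.456 on the log2 scale, against a median of 1.71 over 16263 genes ranked. The histone genes are expressed during DNA replication and have near-identical copies that can share reads, and Ptma encodes prothymosin alpha, a chromatin protein of dividing cells. Since the distance counts the step between the groups, it mostly finds genes that differ by a like amount, with log2 differences of 2.75 to 3.79.

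For Aldh1a1 the nearest were Inha, Akr1cl, Star, Nr5a1 and Fam129a (distance 0.304 to 0.662). Each of these was far higher in KO 4 than in any other library, as with Inha at 58.3 CPM there and 1.23 to 2.36 CPM elsewhere, so this likeness rests on that library. Star moves cholesterol into mitochondria for steroid synthesis, and Nr5a1 is the steroidogenic transcription factor. For Aldh1a2 they were Ppargc1a, Inpp5j, Ccdc146, Dlk1 and the epithelial keratin gene Krt18 (0.062 to 0.091). Near Rara were Prune1, Phb2, Incenp and Zcchc3 (0.054 to 0.062), and near Rarb were Slc6a12, Ribc2, Ephb2, Tlr5 and Crygn (0.080 to 0.111). Crabp1 was nearest to Itga5, Zbtb42, Dgat2, Sema6b and Grm7 (0.063 to 0.093), and Crabp2 to Cox5b, Lsm5, B4galnt3, Gnl3l and Cct2 (0.107 to 0.112).

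Of 37 further genes of uptake, synthesis, breakdown and nuclear action, 34 were tested. Of these, 10 rose, 11 fell and 13 missed the threshold, at a median log2 difference of -0.10. The share that passed, 61.8%, was near the 53.5% of all genes tested. Among the partners and cofactors of the receptors, Rxrb rose by 1.22 (edgeR adjusted p = 4.63e-06), with 49.0 ± 5.29 CPM in the libraries labelled KO and 21.1 ± 1.43 CPM in those labelled WT (SD, n = 4 each). Rxrg, at 0.416 ± 0.166 CPM in the libraries labelled KO and 2.89 ± 1.27 CPM in those labelled WT (SD, n = 4 each), fell by 2.80, and Rxra had a log2 difference of -0.17 (edgeR adjusted p = 0.211).

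The coactivator gene Ncoa3 rose by 1.20 and the corepressor gene Ncor1 by 0.73 (edgeR adjusted p of 0.000110 or lower). Bco1, which cleaves carotene to retinal, fell by 1.77 (edgeR adjusted p = 3.88e-06), with 5.57 ± 0.933 CPM in the libraries labelled KO and 19.0 ± 1.85 CPM in those labelled WT (SD, n = 4 each). Of the other genes for CYP26 enzymes, Cyp26a1 was at 0.645 CPM in the libraries labelled KO and 0.995 CPM in those labelled WT on average and did not pass, and Cyp26c1 was too low to be tested. The balance of the list was not stable: it was 6 higher against 14 lower under upper-quartile scaling and 7 against 13 under ribosomal protein scaling. Among fits without 1 library it was 12 against 7 without KO 2, 10 against 7 without WT 2, 8 against 7 without WT 3 and 9 against 9 without KO 4.

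Of 19 genes known to respond to retinoic acid, 15 were tested. Of these, 2 rose, 6 fell and 7 missed the threshold, at a median log2 difference of -0.80. The share that passed was 53.3%, against 53.5% of all genes tested. Hoxb4, a HOX gene of the hindbrain and trunk, fell by 1.53 (edgeR adjusted p = 0.000115), and Tgm2, a transglutaminase gene and classical target, by 1.10 (edgeR adjusted p = 0.000536). The 2 that rose were Btg2 (log2 difference 1.87), an antiproliferative gene, and Kit (0.55), the receptor gene of migrating germ cells and differentiating spermatogonia; Kit was named after its values were seen. Upper-quartile scaling gave 1 higher and 9 lower, and leaving out WT 4 gave 2 and 9. The median depended on the setting, from -1.12 without KO 3 to -0.43 with cyclic loess scaling. It was -0.55 without WT 2 and -0.63 without KO 2.

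Among 19 genes known to hold back or permit Stra8, 18 were tested. Of these, 10 rose, 4 fell and 4 missed the threshold, at a median log2 difference of 0.59. The share that passed was 77.8%, against 53.5% of all genes tested. Sohlh2, a transcription factor gene of spermatogonia, rose by 2.87, with 65.6 ± 10.2 CPM in the libraries labelled KO and 8.99 ± 1.04 CPM in those labelled WT (SD, n = 4 each; edgeR adjusted p = 4.99e-08). Dmrt1, a transcription factor gene that holds back Stra8 in spermatogonia, rose by 1.45, and of the Polycomb complex that holds meiotic genes silent, Pcgf6 rose by 0.72 and Rnf2 by 0.83 (edgeR adjusted p of 0.000152 or lower). Members of that complex did not all rise: E2f6 fell by 0.42 (edgeR adjusted p = 0.0228), and Mga had a log2 difference of 0.09 (edgeR adjusted p = 0.400). Nanos2, the male fate factor that suppresses meiosis, had 5.68 ± 1.86 CPM in the libraries labelled KO and 1.80 ± 0.528 CPM in those labelled WT (SD, n = 4 each) and rose by 1.66 (edgeR adjusted p = 0.000500). The 4 that fell were Bmp2 (log2 difference -1.65), Msx2 (-1.08), Sohlh1 (-0.57) and E2f6. These, Nanos2 and Mga were named after their values were seen.

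Of 18 genes listed for meiotic entry, 11 rose, 1 fell and 6 missed the threshold, at a median log2 difference of 0.94. The share that passed was 66.7%, against 53.5% of all genes tested. Not all were scarce where Stra8 was: in the libraries labelled WT, Tex15 averaged 1310 CPM and Stag3 756 CPM. Both missed the threshold, and both were named after their values were seen. Upper-quartile, ribosomal protein and cyclic loess scaling each gave 10 higher and 2 lower. Gm4969, which encodes the STRA8 partner MEIOSIN, rose by 1.89 (edgeR adjusted p = 2.86e-05), with 146 ± 55.9 CPM in the libraries labelled KO and 39.2 ± 2.81 CPM in those labelled WT (SD, n = 4 each). The cohesin gene Smc1b rose by 1.95, and Syce2 and Hormad2, of the chromosome axis and synaptonemal complex, by 1.84 and 1.46 (edgeR adjusted p of 1.76e-05 or lower). Spo11, which makes meiotic DNA breaks, was the 1 that fell (log2 difference -0.96), named after its values were seen.

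**Figure D5:**
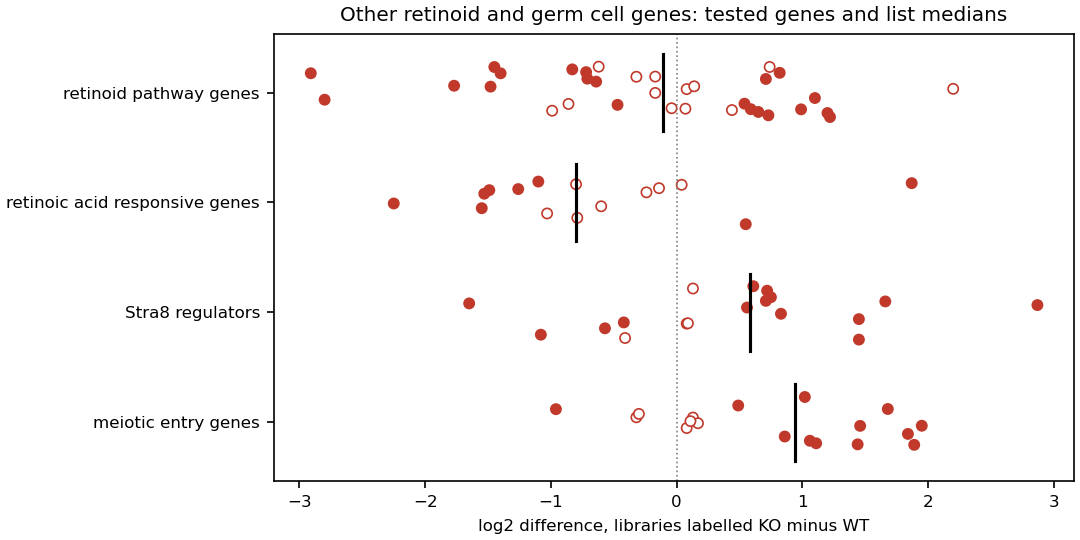
Log2 difference, libraries labelled KO minus WT, of every tested gene of the 4 lists (filled: adjusted p under 0.05), with the list median as a black bar. The medians are -0.10 for retinoid pathway genes, -0.80 for responsive genes, 0.59 for regulators of Stra8 and 0.94 for meiotic entry genes.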

How the data were processed

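The authors deposited un-normalized whole-number counts for each gene. Tools listed in the submitters' processing notes, whose roles are not stated, are featureCounts 1.5.0, STAR, Trim Galore, DESeq2 and edgeR, with mm10 as build. UMI collapsing, the strand setting and the annotation release: not given in the sources used here. Of 55401 genes, 55141 matched GENCODE M21 without version. Counts were fitted with edgeR 4.0.16 (R 4.3.3): filterByExpr, TMM, quasi-likelihood with genotype as the only term, Benjamini-Hochberg over 24005 genes, threshold 0.05. Differences are KO minus WT, log2. Levels per kilobase use the union of exons. Log2 ratios (0.5 added to each count) and marker levels (mean log2(CPM + 1)) were tested by exact permutation. Replicates differed by more than counting noise (chi-square per degree of freedom 7.87 to 27.7 within groups). A count of 0 allows up to 3 counts (0.149 to 0.217 CPM), counting error only. The fit was tested on simulated counts. Members and lists were chosen with earlier results of these data known. Named were the 9 members, Tet1, the 4 genes of lowest p per list (6 for the retinoid pathway), the 5 nearest genes of each called member, and genes marked as chosen after their values were seen; some genes that this rule names are not reported here. Top2b, Aldh1a7, Rxra, Cyp26a1, Cyp26c1, Adh1 and single marker genes were also chosen so. Alternatives (limma 3.58.1, DESeq2 1.42.0, scalings, filters, covariates, libraries left out) are under the closing section.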

Additional observations from a re-analysis of the deposited data

Results flagged for a closer look

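In 7 of 50 groups of 4 values examined, 1 library stood apart from the others of its group by a gap above the 95% critical value of Dixon's test (chance gives about 1 in 20). Aldh1a1 was at 129 CPM in KO 4, and the log2 ratio of Aldh1a2 to Aldh1a1 was -2.16 there. The mean log2 level of the Leydig markers was 6.91 in KO 4 and that of the Sertoli markers 2.35 in KO 4. Those of the Leydig and of the interstitial and mesenchymal markers were 2.31 and 3.13 in WT 2. The mean log2 level of the germ cell markers was 7.53 in KO 2. Of the 9 genes, Aldh1a1 was the only 1 with a library that stood apart in this way.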

How the results depend on the processing

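Stra8, Rara and Aldh1a2 kept their direction and their call under all 19 other settings, with log2 differences of 2.99 to 3.64, 0.97 to 1.14 and -1.23 to -0.93 when 1 library was left out. Of those left-out fits, Rarb ranged from -1.10 to -0.78, Rarg from -0.01 to 0.24, Cyp26b1 from -0.62 to -0.10, Aldh1a1 from 0.68 to 4.22, Crabp1 from -0.48 to -0.28 and Crabp2 from 0.46 to 0.87, and 5 to 7 of the 9 genes and 11313 to 13265 of all genes passed. Scaling moved Rara and Aldh1a2 beyond their left-out ranges. With upper-quartile, ribosomal protein and cyclic loess scaling, Rara was 0.80, 0.85 and 0.78. Under the same scalings Aldh1a2 was -1.37, -1.33 and -1.40, and Stra8 3.07, 3.13 and 3.06. Rarb lost its call with cyclic loess (-0.63). Aldh1a1 lost it with library weights in limma-voom (2.41) and had no adjusted p in DESeq2. Crabp1 lost it with RLE scaling (-0.38), no low-count filter (-0.36), a somatic covariate (-0.40) and thinning (-0.39). Crabp2 lost it with upper-quartile (0.47) and ribosomal protein scaling (0.49), a filter at CPM 1 in 4 libraries (0.67), limma-voom (0.56) and thinning (0.60), where its ratio to Crabp1 (0.94) also lost its call. The cause was not tested. Upper-quartile, ribosomal protein and cyclic loess scaling moved the median of all genes by -0.24, -0.18 and 0.13 and gave 31.2%, 34.1% and 50.7% of calls as higher, against 47.3% with TMM. Deviations of same-numbered libraries had correlations of 0.148, -0.213, -0.115 and 0.015, within the -0.223 to 0.244 of differently numbered ones. What the replicate numbers stand for is not given, so this cannot show whether any libraries are related. The library names of KO 1 and WT 1 share a number whose meaning is not given. With the replicate block, 4 of the 9 genes passed, and Aldh1a1 (1.73), Crabp1 (-0.42) and Crabp2 (0.66) lost their call. Precision is limited for Rarb, Cyp26b1 and Crabp2, with 130 to 317 counts a group.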
